A study of Homo sapiens with 13 samples.

Results

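Compound 4 is a linear polyamide, and its genomic positions were read from 2 peak lists made from H1-hESCs, a widely used line of human embryonic stem cells. All peaks of both lists were taken, which gave 4655 of the 6064 peaks of the series. The list whose name carries no dose, called the undosed list here, held 3074 peaks, and the 400 nM list held 1581. The remaining peaks came from the 2 lists of compound 2, which the structures in the labels show as a hairpin polyamide.

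COSMIC-seq captures DNA that a tagged small molecule has bound in living cells. The series held 13 libraries. Cells were exposed for 24 h to 20 nM or 400 nM of compound 2 or 4, or to 400 nM of compound 5 or 6. Each dose had 2 libraries, and 1 input library stood beside them. Every compound carried psoralen, which bonds to DNA under ultraviolet light, and biotin, the handle for capture, and compounds 5 and 6 carry these parts without a polyamide. All groups used the same line, and the labels name no genetic change. Peak lists were used here for compounds 2 and 4 alone. The undosed list could stem from the 20 nM libraries, the 400 nM libraries or both, so the 2 lists of compound 4 are compared as lists and not as known doses, and any libraries they have in common would make part of their overlap a given. Each list was 1 set of calls with no replicate and with unknown sequencing depth, so the differences below have no replicate check. Intervals in parentheses are exact 95% binomial intervals that cover counting error only.

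Polyamides lie in the minor groove of DNA and read its bases through the order of their pyrrole and imidazole rings. A hairpin polyamide folds back on itself, while a linear one lies extended along the groove. No genome sequence of the build of the lists, hg19, was used here, so neither sequences nor genes are given for the loci, and positions are described by chromosome and cytogenetic band.

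Neighbouring peaks of a list often covered one place, so peaks of a list within 1 kb of each other were merged into loci. The undosed list formed 2802 loci over 1627 kb, and the 400 nM list formed 1386 loci over 883 kb. A single peak made up 2541 of the undosed loci and 1198 of the 400 nM loci. Together the lists marked 3480 separate places, of which 707 were in both, 2094 in the undosed list alone and 679 in the 400 nM list alone. Counted within each list, 708 of 2802 undosed loci (25.3%, 23.7 to 26.9%) overlapped a 400 nM locus by at least 1 bp, and 707 of 1386 400 nM loci (51.0%, 48.3 to 53.7%) overlapped an undosed locus. The same measure in the compound 2 lists gave 104 of 415 undosed loci (25.1%, 21.0 to 29.5%) and 104 of 826 loci at 400 nM (12.6%, 10.4 to 15.0%). List lengths limit these shares. The undosed list was the longer one for compound 4 (2802 against 1386 loci) and the shorter one for compound 2 (415 against 826), so matching one to one could not have given compound 2 a share at 400 nM as high as that of compound 4. The shares are therefore set side by side and not compared.

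The match between lists was close in position. Of the shared loci, 706 had exactly 1 partner. Their midpoints lay a median of 36 bp apart (quartiles 12 and 73.4 bp), and 584 of them (82.7%) lay within 100 bp. In the 475 pairs made of a single peak in each list the median distance was 27 bp. The offset changed little with score, with medians of 40.8 bp in the top decile of undosed loci, 33.5 bp in the next decile and 35 bp below it. The lists therefore marked the same short stretch where they agreed, well within the usual peak widths of 570 bp (undosed) and 604 bp (400 nM).

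The rule of 1 bp left almost no borderline cases. The smallest overlap was 142 bp, at 10q11.23 (chromosome 10, 50394072 to 50394213), where the whole of a narrow undosed locus lay inside a 400 nM locus. Only 4 of the 706 pairs overlapped by less than 50% of the shorter locus. The nearest miss was an undosed locus at 7q34 (chromosome 7, 138382372 to 138382941), which lay 890 bp from a 400 nM locus. Loci without a partner were mostly far from the other list. Just 22 of 2094 undosed-only loci (1.05%) and 16 of 679 400 nM-only loci (2.36%) lay within 10 kb of it, and the median gaps were 681 kb and 342 kb. The longer undosed list gives shorter gaps to the 400 nM loci by its number alone. The plot of offsets and gaps shows this break between matched and unmatched loci.

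**Figure D1:**
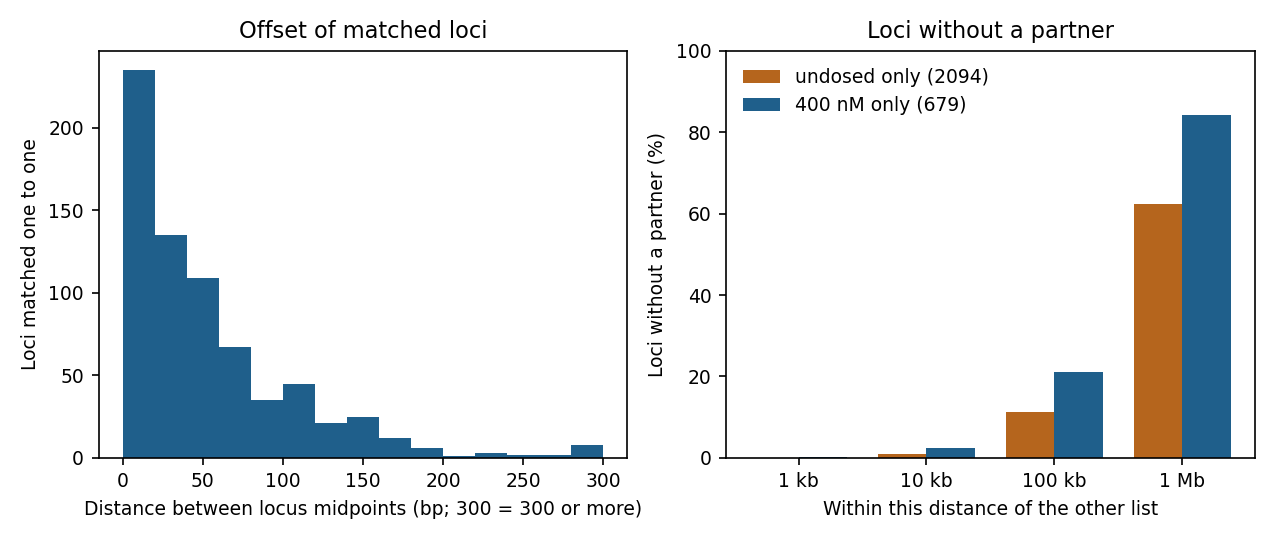
Left, number of loci matched one to one (706) by the distance between their midpoints in bp, in steps of 20 bp with distances of 300 bp or more in the last bar; right, percent of loci without a partner that lie within 1 kb, 10 kb, 100 kb or 1 Mb of the other list. Matched midpoints crowd near 0 (median 36 bp), while 1.05% of undosed-only and 2.36% of 400 nM-only loci lie within 10 kb of the other list.

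The places with the highest scores were common to both lists. The authors' score has no stated scale, so loci were ranked by their highest peak score within their own list, with rank 1 as the highest. All of the 100 highest-ranked 400 nM loci and 99 of the 100 highest-ranked undosed loci had a partner. Of the 200 highest-ranked loci, 199 had a partner in either list. Sharing then fell along the ranks. At rank 500 the count with a partner was 443 in each list, and at rank 1000 it was 575 in the undosed and 628 in the 400 nM list. The same pairs are counted from lists of unequal length. Like counts at like ranks, and unlike fractions of each list, are therefore partly given by the matching. In running windows of 100 loci the share first dropped under 50% in the window ending at rank 577 in the undosed list, which is 20.6% of that list, and at rank 623 in the 400 nM list, which is 45.0% of it.

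By decile of loci, sharing in the undosed list was 99.3% (97.5 to 99.9%) in the top decile, 68.6% (62.8 to 74.0%) in the next and 26.8% (21.7 to 32.4%) in the decile after that, and it ended at 4.29% (2.23 to 7.37%). In the 400 nM list the top decile was shared in 139 of 139 loci and the next in 136 of 139 (97.8%, 93.8 to 99.6%), and the bottom decile in 16 of 138 (11.6%, 6.77 to 18.1%). The lowest decile of both lists thus still held loci found in the other list. The plot of sharing by decile shows a steep fall in the undosed list and a slower one at 400 nM.

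**Figure D2:**
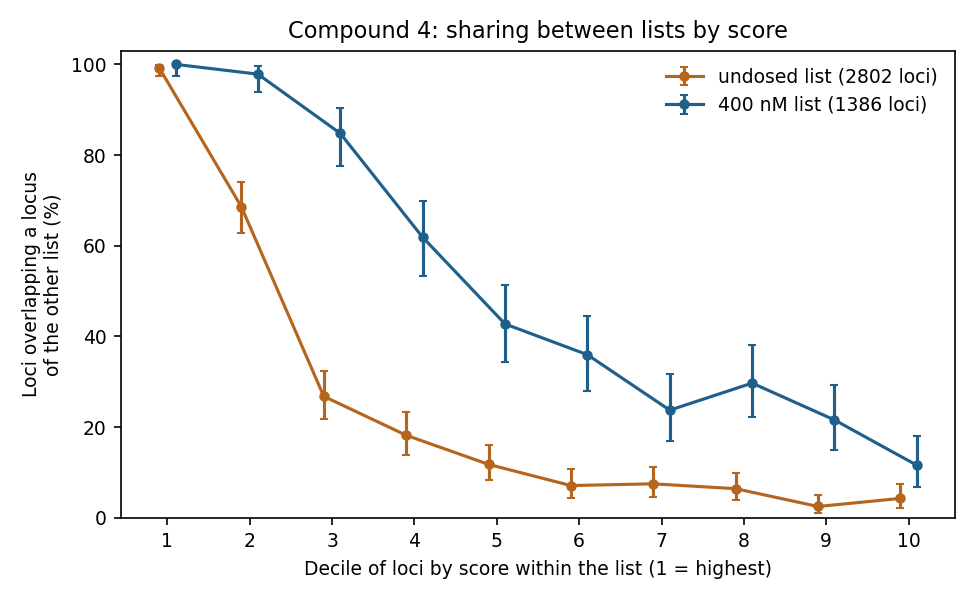
Percent of loci overlapping a locus of the other list (vertical axis) by decile of score within the list (horizontal axis, 1 is the highest); bars are exact 95% binomial intervals. The undosed list (2802 loci) falls from 99.3% to 4.29% and the 400 nM list (1386 loci) from 100% to 11.6%.

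The order of the shared loci agreed as well. Over the 706 loci matched one to one, Spearman's rho between the ranks in the lists was 0.82. This is a description, since all loci of a list share its unknown depth and the lists may have libraries in common. Part of the value comes from the contrast between strong and weak loci, and within narrower classes it was lower. It was 0.61 over the 99 loci from undosed rank 1 to 100, 0.53 over the 195 from there to rank 300 and 0.48 over the 412 below rank 300. Loci of a single peak in both lists gave 0.74 (n = 475) and loci of several peaks in either list gave 0.87 (n = 231). Without merging, peaks that overlapped one to one gave 0.74 (n = 481). In the compound 2 lists rho was 0.26 over 104 loci matched one to one.

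At the top of the lists the agreement was partial. Of the 10 highest undosed loci, 6 had a partner among the 10 highest at 400 nM, of the first 100 it was 73 (73.0%, 63.2 to 81.4%), and of the first 200 it was 161 (80.5%, 74.3 to 85.8%). When the shared loci were ranked among themselves, the median difference in rank was 68.5 of 706 places, and 17 loci (2.41%) moved by more than 300 places. Loci in the top 5% of the undosed list had a median 400 nM rank at 5.41% of that list (quartiles 2.56 and 8.98%), and those between 10 and 20% had a median of 28.4% (21.0 and 45.3%). The scatter of ranks shows a tight lower left corner that opens with falling score.

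**Figure D3:**
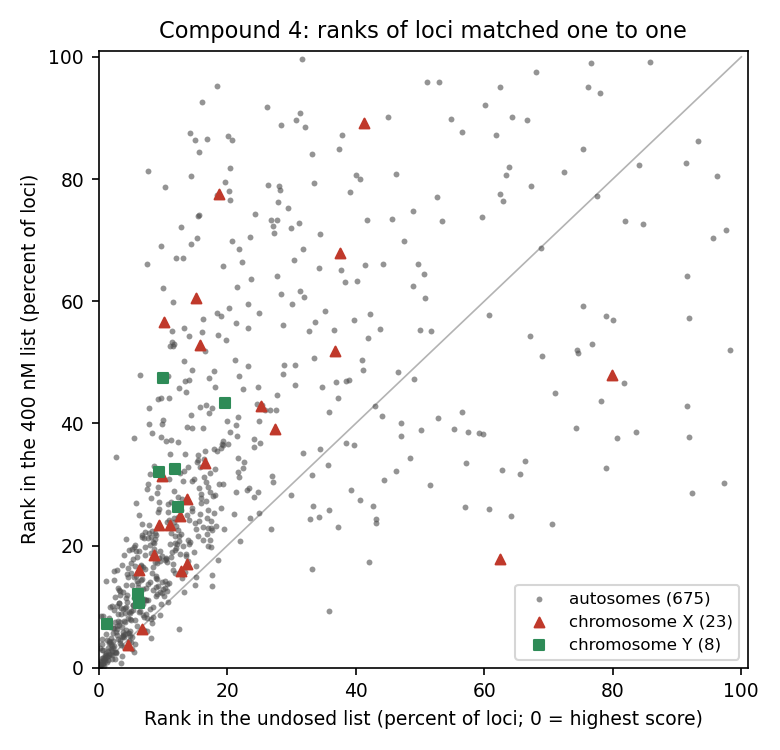
Rank of each of 706 loci matched one to one in the undosed list (horizontal axis) and in the 400 nM list (vertical axis), each as percent of the loci of its list with the highest score near 0; the line marks equal percent, and loci of chromosomes X (23) and Y (8) have their own symbols. Most points lie above the line, as the 400 nM list is shorter, and the spread widens away from the origin.

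The leading loci lay on several chromosomes. By mean rank over the lists the first was at 12q23.3 (chromosome 12, 108350484 to 108351247 in the undosed list). It ranked 1 with a score of 982 in the undosed list and 2 with a score of 254 at 400 nM, and it held 3 peaks in both. The next was at 1p36.22 (chromosome 1, 9283113 to 9283837), with ranks 2 and 3. At 20p12.1 (chromosome 20, 13829004 to 13829444) lay the locus with rank 1 at 400 nM and rank 4 in the other list. These loci stood at the head of both lists, whose lowest scores were 42.9 and 24.4. The loci at 12q13.13 (chromosome 12, 53311888 to 53312219), 1p36.13 (chromosome 1, 16463045 to 16463378) and 10p12.31 (chromosome 10, 21516453 to 21516835) completed the first 6, with undosed ranks 5, 3 and 6 and 400 nM ranks 4, 8 and 6.

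A few shared loci changed place widely. The locus at 16p12.3 (chromosome 16, 20389401 to 20389970) ranked 213 in the undosed list with a score of 195, and 1128 of 1386 at 400 nM with a score of 25.8, close to that list's minimum of 24.4. Those at 3p26.3 (chromosome 3, 2329200 to 2329769), 2q14.2 (chromosome 2, 121754107 to 121754676), 6q13 (chromosome 6, 71389546 to 71390115) and 4q35.2 (chromosome 4, 187374605 to 187375174) went the same way, from undosed ranks of 514, 449, 398 and 420 to 400 nM ranks of 1321, 1284, 1213 and 1198. In the other direction, the locus at 5q11.2 (chromosome 5, 55370520 to 55371089) stood at rank 2728 of 2802 in the undosed list and at 420 at 400 nM. That at 6q16.1 (chromosome 6, 98319022 to 98319591) had ranks of 2589 and 397, and that at 1p36.21 (chromosome 1, 15437515 to 15438084) had 1975 and 326. The remaining loci of this group, at 12q14.3 (chromosome 12, 66776749 to 66777318) and 13q14.13 (chromosome 13, 46071539 to 46072108), had undosed ranks of 2573 and 2566 and 400 nM ranks of 523 and 594. All 10 were single peaks in both lists. Each had a low score in the list where it ranked lower. These scores were 24.7 to 25.8 at 400 nM (minimum 24.4) and 43.3 to 47.9 in the undosed list (minimum 42.9). The bottom decile of undosed loci spanned scores of only 44.3 to 42.9, so large rank differences there cover small score differences.

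High-ranked loci without a partner were few. In the undosed list the highest was at 20p11.21 (chromosome 20, 22989387 to 22989726), with rank 24 and a score of 432, and 469 kb from the nearest 400 nM locus. The same place ranked 2 in the undosed compound 2 list. The next one without a partner was at 5p15.32 (chromosome 5, 5774808 to 5775377), with rank 202. Between these ranks every undosed locus had a 400 nM partner. Then came 18q21.1 (chromosome 18, 47879107 to 47879676), 15q26.1 (chromosome 15, 91591074 to 91591843), 1p36.23 (chromosome 1, 9071482 to 9072051) and 14q12 (chromosome 14, 29324146 to 29324715), with ranks from 283 to 300.

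In the 400 nM list the first locus without a partner was at 19p13.3 (chromosome 19, 5463121 to 5463724), with rank 161 and a score of 79.9. It was followed by 12q22 (chromosome 12, 95320281 to 95320884) at rank 211 and 2q22.2 (chromosome 2, 143312704 to 143313307) at rank 271. The next were at 7q11.23 (chromosome 7, 72316432 to 72317035), 1p32.3 (chromosome 1, 55541015 to 55541819) and 1p34.2 (chromosome 1, 40790803 to 40791406), with ranks of 308, 310 and 333. None of these 6 overlapped a locus of either compound 2 list. The same held for nearly all of the 679 400 nM-only loci, of which 0 overlapped the undosed and 3 (0.442%) the 400 nM compound 2 list.

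Undosed-only loci coincided with undosed compound 2 loci in a larger share than shared loci did. Of the 2094 undosed-only loci of compound 4, 47 (2.24%, 1.65 to 2.97%) overlapped an undosed compound 2 locus, against 1 of 708 shared loci (0.141%, 0.00358 to 0.784%). Among the 1000 highest-ranked undosed loci the counts were 11 of 425 undosed-only and 1 of 575 shared loci. The 47 loci spread over 18 chromosomes and had a median rank of 1415. They overlapped 47 of the 415 undosed compound 2 loci, and those 47 had a median rank of 265 in the compound 2 list. The single shared one lay at 6q16.1 (chromosome 6, 93483616 to 93484185) and had rank 701 among the undosed loci and rank 804 among the 400 nM loci. Against the 400 nM compound 2 list, 16 undosed-only loci (0.764%) and 0 of 708 shared loci overlapped, the latter allowing a share of up to 0.424%. Of the 679 400 nM-only loci, 0 overlapped the undosed and 3 the 400 nM compound 2 list. The libraries of the compounds are separate samples in the labels, and the series has 1 input.

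Loci of several peaks were concentrated among the shared ones. In the undosed list 169 of 708 shared loci (23.9%, 20.8 to 27.2%) and 92 of 2094 unshared loci (4.39%, 3.56 to 5.36%) held more than 1 peak. At 400 nM it was 154 of 707 (21.8%, 18.8 to 25.01%) and 34 of 679 (5.01%, 3.49 to 6.93%). Loci of several peaks also had higher scores. Part of this is given by the rules, since a locus took its highest peak score and a wider locus is easier to overlap by 1 bp. The median rank of shared loci was 192 with several peaks and 457 with a single peak in the undosed list, and 168 and 452 at 400 nM. Beyond the 200 highest loci and up to rank 1000, the share with a partner was 63.1% (53.9 to 71.7%) for undosed loci of several peaks and 44.1% (40.3 to 47.9%) for single ones, and 65.6% (55.2 to 75.02%) and 52.0% (48.2 to 55.7%) at 400 nM, where the intervals overlapped. Within this range too, loci of several peaks ranked higher, with median ranks of 425.5 against 624.5 in the undosed list and 420.5 against 622.5 at 400 nM.

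Peaks within a locus had a like median spacing in both lists. In loci of 2 distinct peaks the midpoints lay a median of 205 bp apart in the undosed list (quartiles 200 and 226 bp, n = 247) and 206 bp at 400 nM (202 and 221 bp, n = 184). At 400 nM the median was 204.5 bp in shared loci (n = 150) and 230 bp in unshared ones (quartiles 208 and 286 bp, n = 34). Whether peak calling set a minimum distance was not given in the sources used here. Where a matched locus had 2 peaks in both lists, the peak with the higher score lay on the same side in 74 of 80 loci (92.5%, 84.4 to 97.2%). The spacings at these 80 loci differed by a median of 9.25 bp between the lists and had a rho of 0.064, so their order was not shared. The locus of the most peaks in the undosed list was at Yq11.221 (chromosome Y, 16344080 to 16345381), with 4 peaks and rank 331. At 400 nM it was at 15q22.31 (chromosome 15, 65243165 to 65247536), where 6 peaks spanned 4372 bp. This wide locus covered 2 undosed loci, of 2 peaks (rank 593) and 1 peak (rank 974), and was the only match that was not one to one.

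Along the chromosomes the shared loci were not spread evenly. Chromosomes 16 and 20 held the most shared loci per length, with 3.87 and 3.65 per 10 Mb, and chromosome 21 the fewest, with 1.25. On chromosome 16, 35 of 79 undosed loci (44.3%, 33.1 to 55.9%) and 35 of 57 400 nM loci (61.4%, 47.6 to 74.0%) were shared. On chromosome 20 it was 23 of 60 (38.3%, 26.1 to 51.8%) and 23 of 34 (67.6%, 49.5 to 82.6%). The autosomes as a whole stood at 24.6% (23.03 to 26.3%) and 49.96% (47.3 to 52.7%). Loci of both chromosomes also had higher scores, with median ranks at 35.2% (chromosome 16) and 40.2% (chromosome 20) of the undosed list, against 50.4% for the autosomes, and at 39.5% and 46.7% of the 400 nM list, against 50.6%. The part of score in these shares was not tested. The lengths include unsequenced stretches, which are long on chromosome 21 among others.

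Chromosomes 14 and 19 were at the low end of the 400 nM list. Partners were found for 16 of 49 loci of chromosome 14 (32.7%, 19.9 to 47.5%) and 9 of 43 of chromosome 19 (20.9%, 10.0 to 36.0%). Their median ranks were at 62.0% and 49.4% of that list. On chromosome 19, 12 of the 34 unshared loci lay in band 19q11, beside the centromere, within 89.4 kb (27799355 to 27888757), where the undosed list had no locus. Without that band 9 of 31 loci were shared (29.0%, 14.2 to 48.0%). The best of these 12 loci ranked 381 and their median rank was 928, so the group lay in the middle and lower part of the list.

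On the sex chromosomes nearly every 400 nM locus recurred. Chromosome X had 44 undosed and 25 400 nM loci, and 23 places were in both. That is 92.0% of the 400 nM loci (74.0 to 99.0%) and 52.3% of the undosed loci (36.7 to 67.5%). On chromosome Y 8 of 8 400 nM loci and 8 of 10 undosed loci were shared. Both chromosomes held few loci for their length, which includes unsequenced stretches. The number of copies of each chromosome in the cells was not taken into account, for loci per length or for shares. X had 2.83 undosed and 1.61 400 nM loci per 10 Mb, and Y had 1.68 and 1.35, the lowest values in both lists. Shared loci per 10 Mb were 1.48 on X and 1.35 on Y, close to the lowest value of 1.25 on chromosome 21. The share of X loci with a partner nevertheless lay above that of autosomal loci in both lists, with intervals that did not overlap. X loci also had higher scores than autosomal ones, with median ranks at 33.5% and 50.6% of the 400 nM list and at 29.0% and 50.4% of the undosed list. Below the top 20% of the 400 nM list, 16 of 18 X loci (88.9%, 65.3 to 98.6%) and 412 of 1086 autosomal loci (37.9%, 35.0 to 40.9%) were shared. In the undosed list the corresponding shares were 7 of 26 (26.9%, 11.6 to 47.8%) and 231 of 2214 (10.4%, 9.19 to 11.8%), and the lower bound for X lay just under the upper bound for the autosomes.

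The highest shared X locus was at Xq28 (chromosome X, 153900261 to 153901029), with 2 peaks in both lists and ranks of 129 and 52. The highest on chromosome Y was at Yq11.222 (chromosome Y, 21464526 to 21465184), with ranks of 36 and 100. The 2 X loci found at 400 nM alone, at Xq24 (chromosome X, 117365695 to 117366586) and Xq11.1 (chromosome X, 62223165 to 62223768), ranked 1074 and 1319. They were thus among the weaker calls of that list. The plot of sharing by chromosome sets X and Y beside the autosomes.

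**Figure D4:**
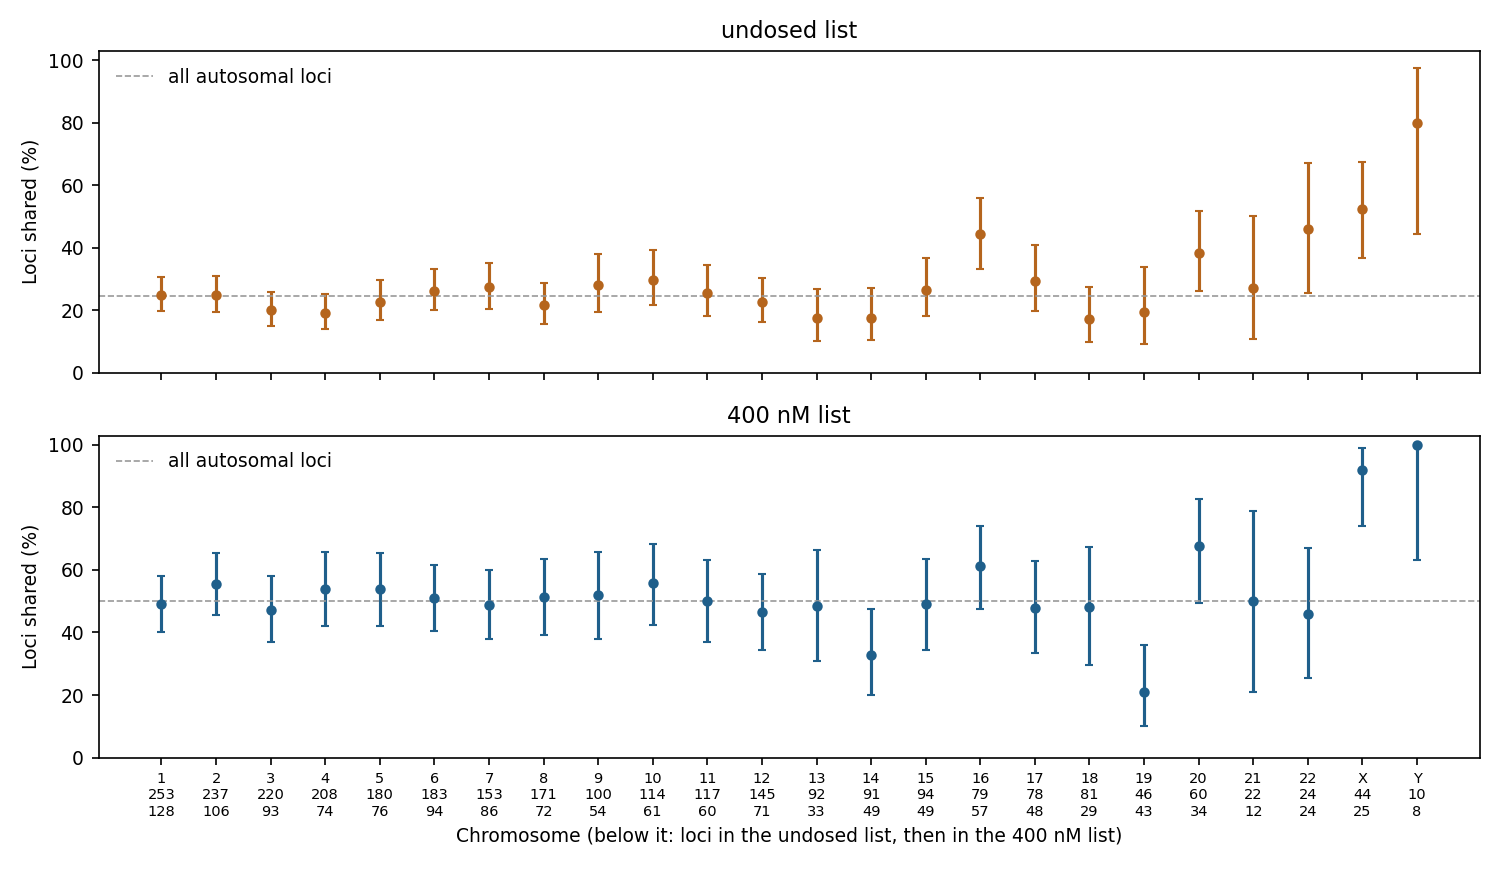
Percent of loci with a partner in the other list on each chromosome, for the undosed list (top) and the 400 nM list (bottom), with exact 95% binomial intervals, the share over all autosomal loci as a dashed line and the number of loci under each chromosome. Chromosomes X (52.3% and 92.0%) and Y lie highest in both lists, and chromosome 19 lies lowest at 400 nM (20.9%).

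The classes also differed in the kind of band they lay in. Giemsa staining leaves gene-rich, early replicating bands light (gneg) and marks gene-poor bands darkest (gpos100). Light bands held 51.3% of the 679 400 nM-only loci (47.4 to 55.1%), 45.1% of the 708 shared loci (41.3 to 48.8%) and 41.6% of the 2094 undosed-only loci (39.5 to 43.7%), and they make up 42.2% of the genome length. The darkest bands held 13.5% (11.1 to 16.4%), 15.1% (12.6 to 18.0%) and 19.6% (17.9 to 21.4%) in that order, against 16.1% of the length. The share in light bands was thus higher, and that in the darkest bands lower, for 400 nM-only than for undosed-only loci, with intervals that did not overlap. Both lists were also cut to the 50% of peaks with the highest scores before matching. A locus without a partner there can have one among the peaks left out, so these classes are not those of the full lists. The direction was the same, but the intervals overlapped. Light bands then held 49.4% (41.7 to 57.1%) of 172 400 nM-only and 41.8% (38.5 to 45.2%) of 866 undosed-only loci. The darkest bands held 13.4% (8.67 to 19.4%) and 20.8% (18.1 to 23.6%). No test of the difference was run.

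Centromere bands (acen) held 24 of the 679 400 nM-only loci (3.53%, 2.28 to 5.21%), 7 of the 2094 undosed-only loci (0.334%) and 3 of the 708 shared loci (0.424%). Band 19q11 supplied 12 of the 24, and without it the share was 12 of 667 (1.799%, 0.933 to 3.12%), which was still above the upper bound of 0.688% for undosed-only loci. Centromere bands make up 3.39% of the genome length. The share over all 679 400 nM-only loci was near that, while the share without 19q11 and those of the other classes were lower. Near chromosome ends, within 10 Mb, lay 12.7% of shared loci (10.3 to 15.4%), 9.55% of undosed-only loci (8.33 to 10.9%) and 8.39% of 400 nM-only loci (6.42 to 10.7%), and all lay below the 15.5% of length there. These lengths include unsequenced stretches, in which no peak can be called. The lack of loci in the stalk bands of the acrocentric chromosomes is therefore not read as a result. The plot of placement sets the classes side by side.

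**Figure D5:**
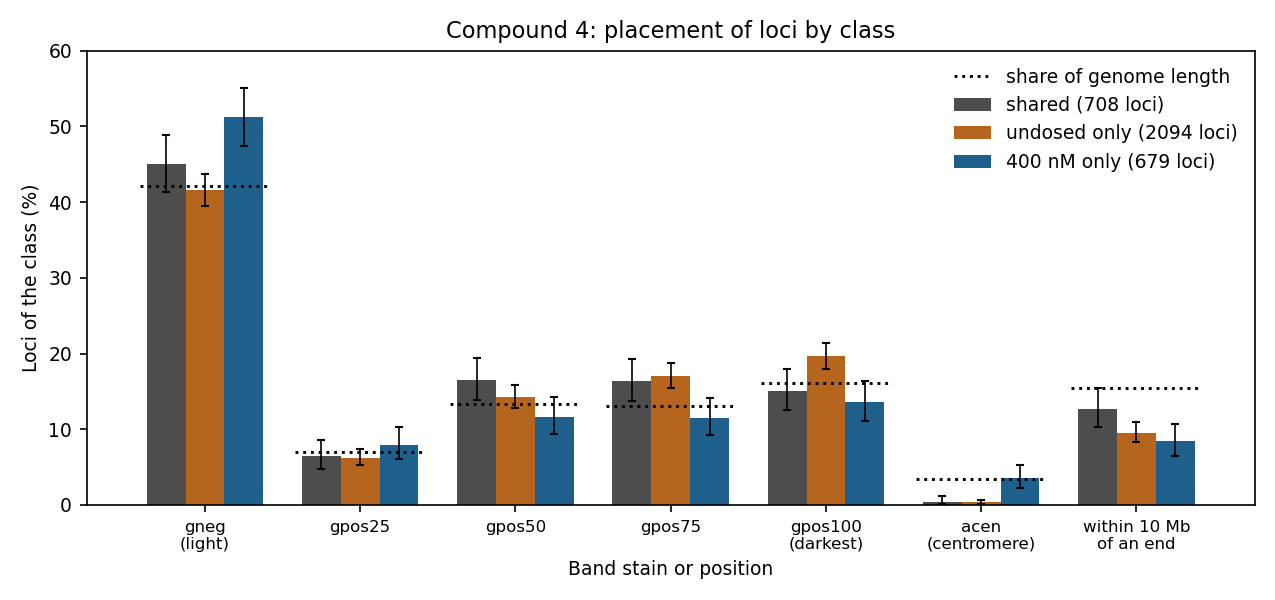
Percent of loci in each kind of Giemsa band and within 10 Mb of a chromosome end (bars with exact 95% binomial intervals) for the shared (708), undosed-only (2094) and 400 nM-only (679) loci; dotted lines give the share of genome length. The 400 nM-only loci are highest of the classes in light bands (51.3%) and centromere bands (3.53%, near the 3.39% of genome length), and the undosed-only loci in the darkest bands (19.6%).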

How the data were processed

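The labels' protocols describe capture of crosslinked DNA from H1 cells and sequencing with a ChIP library kit. The submitters' processing notes name hg19 as the build, with CASAVA 1.8.2, Bowtie 1.0 and HOMER as tools. Roles, settings and pooling were not given in the sources used here. The deposited lists hold, without a header, chromosome, start, end and a score per peak whose scale is not stated. It was used only to rank within a list. The 400 nM list was taken as 1 list of its 2 libraries, and the undosed list was put in no group.

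Peaks of a list within 1 kb were merged, loci were matched at 1 bp or more, and each locus took its highest peak score. Intervals are exact Clopper-Pearson. A count of 0 allows 3 counts. Loci were called shared from the undosed list unless stated. No test was run, since each arm was 1 list, and placements at random were not drawn. Members, lists and tests were chosen with earlier results of these data known. Named loci were the 6 highest by mean rank, the 6 highest without a partner per list, the 5 largest rank changes in each direction, the loci with the most peaks and the bands with the most loci per Mb. Those on chromosomes X, Y and 19 and over compound 2 loci, and the limits of rank 1000 and the top 20%, were chosen after the values were seen. Genes were not assigned and motifs not searched, because the reference tables used here are of another build. Chromosome lengths came from GenomeInfoDb 1.38.1 and bands from circlize 0.4.16, in R 4.3.3. The scripts ran in Python 3.11.15 and used pandas 2.3.3, scipy 1.17.1, networkx 3.6.1, matplotlib 3.10.9 and numpy 2.4.6. Merging and matching were tested on 20 simulated pairs of lists, in which all planted loci were found.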

Additional observations from a re-analysis of the deposited data

How the results depend on the processing

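Of 85 recomputed values, 73 stayed within the interval of the value in the text (within 0.05 for rho, within 1.5 times for counts). Among these, leaving out 19q11 could not change the shared and undosed-only values, since the undosed list had no locus there. The shared share of the undosed and 400 nM lists was 22.8% and 46.0% with a reciprocal overlap of 50%, where narrow peaks inside wide ones drop out by construction. It was 36.8% and 74.6% when both lists were cut to the 50% of peaks with the highest scores before matching. With equal numbers of loci it was 45.3% and 45.2%, and with single-peak loci only, where rho was 0.74, it was 18.7% and 39.6%. The share of 400 nM-only loci in centromere bands became 2.12% with peaks merged within 10 kb and 1.799% without 19q11, and equal numbers of loci raised the shared share of undosed X loci to 70.0%. The settings without 19q11 and those for chromosome X were added after seeing the data. Motif alternatives were not run, since no hg19 sequence was used here. No paired analysis was possible because each list is 1 set of calls that marks no replicate, and for that reason no replicate could be left out. Depth is unknown, so whether weak loci of one list were below detection in the other could not be told.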

Other observations

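The bands named here are the highest of 862 bands of unequal length, so they do not by themselves show that loci gather. Of the bands with the most undosed-only loci, 4q28.3 held 14 such loci of 16 undosed and 2 400 nM loci, and 1p31.1, 6q21, 14q12 and 15q14 held 13, 11, 10 and 10. Long bands hold more loci by length alone. Band 1p31.1 is 15.2 Mb long and held 0.855 undosed-only loci per Mb, and 4q28.3 held 1.67 per Mb. By length the highest were 13q14.12, with 3 undosed-only loci in 0.6 Mb, then 2q23.2 and 8q12.2 (2 each), 14q31.2 (4) and 15q12 (7), and none of these 5 had a 400 nM locus. For 400 nM-only loci they were 19q11 (12 loci in 2.1 Mb), 15q15.2 (2), 12q24.12 (1), 13q32.3 (4) and 7q32.2 (2). For shared loci they were 15q22.1 (1 locus in 0.2 Mb), 6p22.1 (5), 17q23.1 (1), 3p11.2 (1) and 12q23.2 (3), while 16q12.1 and 16q21 held the largest number, 7 each. Most of these counts are too small to rank bands.

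The ratio of undosed to 400 nM loci differed between chromosomes, where the whole lists held 2802 and 1386 loci. The lowest and highest ratios are given, without intervals, so counting error in them was not judged. Chromosome 22 had 24 loci in each list, of which 11 were shared. The ratio was 1.07 on chromosome 19 (46 and 43) and 1.39 on chromosome 16 (79 and 57). It was 2.79 on chromosomes 13 and 18 (92 and 33, 81 and 29) and 2.81 on chromosome 4 (208 and 74). Apart from chromosome Y (1.25, with 10 and 8 loci), the remaining chromosomes lay between 1.625 (chromosome 17) and 2.375 (chromosome 8).

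Most peaks of a list had one fixed width. Of the 142 undosed peaks with another width, 74 were among the 100 highest-scoring peaks and the lowest ranked 2023 of 3074. At 400 nM there were 19, all among the first 100.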
